A study of Homo sapiens with 11 samples.

Results

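The 10 genes described here encode keratins and other intermediate filament proteins: the keratins KRT7, KRT8, KRT18, KRT19, KRT20, KRT23 and KRT80, vimentin (VIM), nestin (NES) and the A-type lamins (LMNA). They were chosen by symbol, with earlier results of these data known, from 61464 rows of a deposited table of read counts. Each symbol matched 1 Ensembl ID, and the 10 genes all entered the test, with 17963 genes in it overall. The RNA came from HCT116, an established line of human colon carcinoma, labelled as epithelial cells with a ras mutation, and was enriched for polyadenylated transcripts. Cells were exposed for 48 h to GTEA1 (4 libraries) or GTEA7 (4 libraries), extracts of Ganoderma triterpenoids known only by code names, or to the solvent DMSO alone (3 libraries). All 11 libraries share the line, the time and the labelled batch 1, and no dose is given. The question named in the series title is the mechanism by which the extracts limit stemness and migration in colon cancer.

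Intermediate filaments are rope-like polymers that give cells and nuclei mechanical strength. Keratins assemble as pairs of an acidic type I chain (KRT18, KRT19, KRT20 and KRT23 here) and a basic type II chain (KRT7, KRT8 and KRT80). Simple epithelia such as the gut lining rest on KRT8 with KRT18 or KRT19, and mature gut epithelium adds KRT20. Vimentin is the filament of mesenchymal cells, nestin that of many progenitor cells, and lamins line the inside of the nuclear envelope.

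The libraries held 13742326 to 16433111 counts in GTEA1, 14955685 to 19304211 in GTEA7 and 13866350 to 17431515 in DMSO. Mitochondrially encoded genes took 12.49% to 13.56% of counts in GTEA1, 14.96% to 15.28% in GTEA7 and 13.35% to 15.05% in DMSO. The 6 colon epithelial markers (EPCAM, CDH1, CDX1, CDX2, VIL1 and CDH17) summed to 523 to 541 CPM in GTEA1, 418 to 439 CPM in GTEA7 and 387 to 399 CPM in DMSO, where CPM are counts scaled to a common library size and for library composition by TMM. Most of that sum was EPCAM. The intestinal transcription factor CDX2 had 7.38 to 8.08 CPM in GTEA1, 11.2 to 12.0 CPM in GTEA7 and 11.1 to 12.2 CPM in DMSO. CDH17 went the other way with GTEA1, with 2.14 to 3.59 CPM in GTEA1, 0.805 to 1.24 CPM in GTEA7 and 0.528 to 1.03 CPM in DMSO. CDX1 had 0 counts in every library, and VIL1, the microvillus protein villin, stayed under 0.3 CPM. The 4 squamous markers, KRT5 and KRT14 among them, summed to 0.383 to 0.513 CPM in GTEA1, 0.530 to 0.747 CPM in GTEA7 and 0.689 to 1.19 CPM in DMSO. The 6 fibroblast markers summed to 38.2 to 46.3 CPM in GTEA1, 36.7 to 45.9 CPM in GTEA7 and 53.8 to 55.3 CPM in DMSO, nearly all of it COL1A1. The 5 leukocyte markers, with CD3E at 0, summed to 0.147 to 0.523 CPM in GTEA1, 0.115 to 0.511 CPM in GTEA7 and 0.293 to 0.689 CPM in DMSO, and the 4 endothelial markers to 3.75 to 4.25 CPM in GTEA1, 2.65 to 4.26 CPM in GTEA7 and 2.52 to 3.44 CPM in DMSO. Their part in the results below was not tested. In bulk RNA, fewer cells of a kind and less RNA per cell cannot be told apart. The labels do not say that replicates were separate cultures, so the p-values measure only the spread between these libraries. For CPM and ratios, ± gives the SD (n = 4 for GTEA1 and GTEA7, n = 3 for DMSO), and for log2 fold changes the standard error. Adjusted p-values come from edgeR over all tested genes, with a threshold of 0.05.

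With GTEA1, the keratin genes split. KRT7 (3.92-fold), KRT80 (3.84-fold) and KRT19 (2.27-fold) rose against DMSO, as did LMNA (1.62-fold) and VIM (1.50-fold), while KRT20 (3.38-fold), KRT23 (1.73-fold), KRT18 (1.21-fold) and KRT8 (1.19-fold) fell. NES passed the threshold at 1.08-fold, a call that several alternatives did not keep. In all, 6 of the 10 genes were higher and 4 lower, where 71.8% of all tested genes passed, 35.6% higher and 36.2% lower. For 9 of the 10, every GTEA1 library lay on 1 side of every DMSO library, where this held for 68.7% of tested genes. With most genes past the threshold, passing says little about these 10 in particular, and their sizes and directions are given below. When libraries were scaled by their size alone, the median over tested genes was -0.17, with 4836 genes higher and 8173 lower, in place of 6390 and 6505.

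With GTEA7, fewer of these genes moved. KRT23 rose 1.85-fold and KRT19 1.16-fold, and KRT8 (1.12-fold), KRT18 (1.09-fold), KRT80 (1.32-fold) and VIM (1.53-fold) fell against DMSO. KRT7, KRT20, NES and LMNA did not pass. The count was thus 2 higher and 4 lower of 10, where 22.5% of all tested genes passed, 12.0% higher and 10.4% lower. The groups did not overlap for 5 of the 10, against 30.5% of tested genes. Scaled by library size alone, 1258 tested genes were higher and 2949 lower, in place of 2159 and 1877. The comparisons of GTEA1 and GTEA7 with DMSO share the DMSO libraries.

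Set against GTEA1, GTEA7 libraries had more KRT20 (4.67-fold), KRT23 (3.19-fold), KRT18 (1.11-fold) and KRT8 (1.07-fold), and less KRT80 (5.07-fold), KRT7 (4.70-fold), VIM (2.29-fold), KRT19 (1.96-fold) and LMNA (1.59-fold). NES did not pass. That is 4 higher and 5 lower of 10, where 72.7% of all tested genes passed, 36.2% higher and 36.4% lower. The groups did not overlap for 9 of the 10, against 65.3% of tested genes. Scaled by library size alone, tested genes had a median of 0.11, with 7651 higher and 5459 lower, in place of 6510 and 6546.

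**Figure D1:**
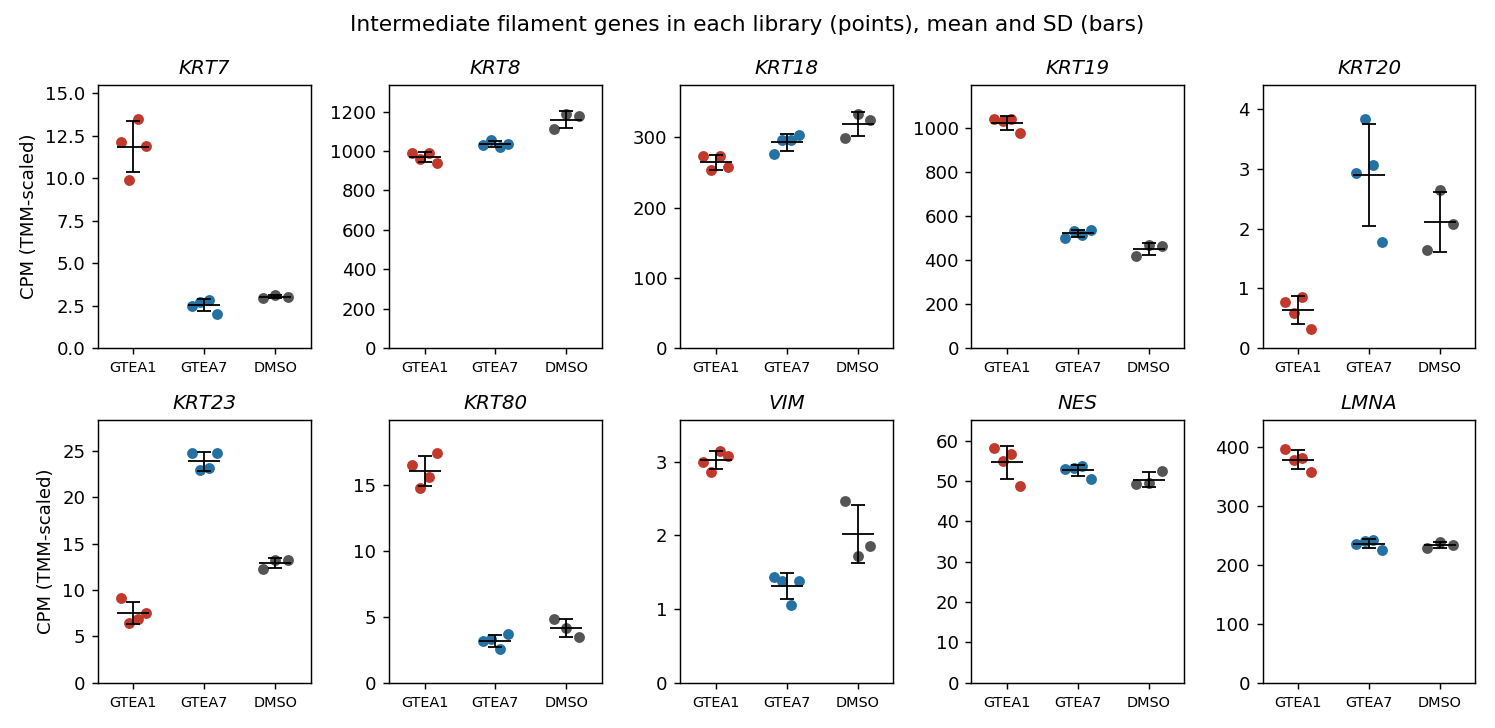
CPM (vertical axes, scaled counts, each from 0) of the 10 genes in every library, with GTEA1 in red, GTEA7 in blue and DMSO in grey; bars are the mean and SD over 4, 4 and 3 libraries. KRT7, KRT19, KRT80 and LMNA stand high in all GTEA1 libraries, KRT20 stands low in them, and KRT23 is highest in all GTEA7 libraries.

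**Figure D2:**
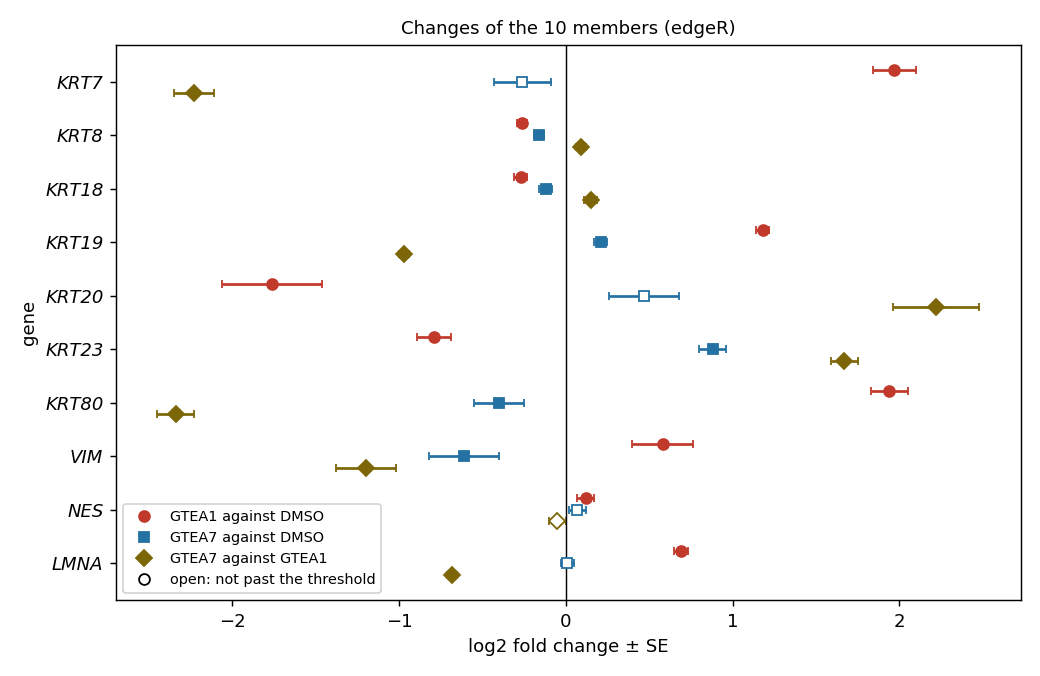
Log2 fold changes (horizontal axis) of the 10 genes with their standard errors in the 3 comparisons, from edgeR; open symbols did not pass the threshold of 0.05. KRT7, KRT80, KRT19 and LMNA lie to the right for GTEA1 against DMSO and to the left for GTEA7 against GTEA1, and KRT20 and KRT23 lie the other way.

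Levels of different genes were compared as CPM per kilobase of transcript. In GTEA1 libraries the order was KRT19 (737 ± 23.2 CPM per kb), KRT8 (575 ± 14.0), KRT18 (169 ± 6.88), LMNA (119 ± 5.24), NES (9.83 ± 0.740), KRT7 (6.76 ± 0.851), KRT80 (4.16 ± 0.294), KRT23 (3.77 ± 0.606), VIM (1.61 ± 0.0645) and KRT20 (0.363 ± 0.135). The libraries of KRT80 and KRT23, neighbours in this order, overlapped. In GTEA7 libraries KRT8 led (613 ± 8.84 CPM per kb), before KRT19 (376 ± 11.8), KRT18 (188 ± 7.44), LMNA (73.9 ± 2.35), KRT23 (12.0 ± 0.498), NES (9.48 ± 0.253), KRT20 (1.67 ± 0.490), KRT7 (1.43 ± 0.200), KRT80 (0.822 ± 0.124) and VIM (0.703 ± 0.0917). There the libraries of KRT20 overlapped those of KRT7, and those of KRT80 overlapped those of VIM. In DMSO libraries KRT8 led too (687 ± 24.9 CPM per kb), before KRT19 (325 ± 20.1), KRT18 (204 ± 11.1), LMNA (73.2 ± 1.80), NES (9.06 ± 0.318), KRT23 (6.50 ± 0.262), KRT7 (1.73 ± 0.0552), KRT20 (1.22 ± 0.288), VIM (1.08 ± 0.210) and KRT80 (1.08 ± 0.168), and the last 3 overlapped their neighbours. KRT19 thus stood above KRT8 in GTEA1 libraries and below it in GTEA7 and DMSO libraries. The order of the first 4 genes in each group was the same by coding length, whereas KRT80, with a long untranslated part, moved up from place 10 to 7 in DMSO.

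KRT8 (ENSG00000170421) and KRT18 (ENSG00000111057), the obligate pair of simple epithelia, were lower with both extracts. KRT8 had 987, 961, 991 and 940.5 CPM in GTEA1 libraries, 1028, 1055, 1019.6 and 1034 CPM in GTEA7 libraries and 1110.1, 1187 and 1178 CPM in DMSO libraries. The 3 groups did not overlap: GTEA1 was lowest, GTEA7 intermediate and DMSO highest. KRT8 fell by 0.26 ± 0.03 on the log2 scale with GTEA1 (adjusted p = 3.5e-09) and by 0.16 ± 0.03 with GTEA7 (adjusted p = 2.3e-04), and GTEA7 stood 0.09 ± 0.03 above GTEA1 (adjusted p = 0.0083). KRT18 had 274, 253, 273 and 258 CPM in GTEA1 libraries, 276, 297, 296 and 303 CPM in GTEA7 libraries and 299.8, 333 and 325 CPM in DMSO libraries. Every GTEA1 library was below every GTEA7 and every DMSO library, while GTEA7 replicate 4 lay above the lowest DMSO library. KRT18 fell by 0.27 ± 0.04 with GTEA1 (adjusted p = 1.4e-08) and by 0.12 ± 0.04 with GTEA7 (adjusted p = 0.012), and GTEA7 stood 0.15 ± 0.04 above GTEA1 (adjusted p = 2.5e-04). The GTEA7 call of KRT18 was lost when DMSO replicate 2, DMSO replicate 3 or GTEA7 replicate 1 was left out (adjusted p = 0.14, 0.077 and 0.072).

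The proportion of the pair overlapped between groups. The ratio of KRT8 to KRT18 CPM, which also carries their lengths, was 3.67 ± 0.0895 in GTEA1 (SD, n = 4), 3.53 ± 0.140 in GTEA7 (SD, n = 4) and 3.63 ± 0.0693 in DMSO (SD, n = 3). The ranges of the 3 groups overlapped, from 3.61 to 3.80 in GTEA1, from 3.41 to 3.72 in GTEA7 and from 3.57 to 3.70 in DMSO. Both genes have many processed pseudogenes. Symbols of 51 KRT8 pseudogenes were in the table, 6 of them tested, and together they held 2.39% of the counts of KRT8 itself; 67 KRT18 pseudogenes held 1.31% of the counts of KRT18. KRT8P3, with 2558 counts the largest, fell by 0.26 ± 0.09 with GTEA1 (adjusted p = 0.0083), like KRT8, whereas KRT8P33 rose by 0.72 ± 0.14 (adjusted p = 1.4e-05). The split of reads among such copies is uncertain, but adding all named pseudogenes to their parent changed the call of none of the 10 genes in the 3 comparisons.

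KRT19 (ENSG00000171345), the smallest keratin, pairs with KRT8 in place of KRT18. It had 1043, 1036, 1044 and 977 CPM in GTEA1 libraries, 503, 535, 514 and 537 CPM in GTEA7 libraries and 419, 469.9 and 464 CPM in DMSO libraries. None of the groups overlapped, with GTEA1 far above the others. Its log2 fold change was 1.18 ± 0.04 for GTEA1 against DMSO (adjusted p = 6.9e-32), 0.21 ± 0.04 for GTEA7 against DMSO (adjusted p = 2.2e-05) and -0.97 ± 0.03 for GTEA7 against GTEA1 (adjusted p = 3.7e-30). Its 5 pseudogenes held 0.0357% of its counts.

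With KRT19 up and KRT8 down, the balance of the major keratins shifted. The ratio of KRT8 to KRT19 CPM was 0.947 ± 0.0145 in GTEA1, 1.98 ± 0.0484 in GTEA7 and 2.57 ± 0.0681 in DMSO. The ratio of KRT19 to KRT18, both type I, was 3.88 ± 0.147 in GTEA1, 1.78 ± 0.0368 in GTEA7 and 1.41 ± 0.0148 in DMSO. For both ratios the ranges of the 3 groups were apart. Summed per kilobase, the 4 type I genes stood at 911 ± 27.6 CPM per kb in GTEA1, 577 ± 18.4 in GTEA7 and 537 ± 31.7 in DMSO, and the 3 type II genes at 586 ± 14.3 in GTEA1, 615 ± 8.91 in GTEA7 and 689 ± 24.8 in DMSO. The type I to type II ratio was 1.55 ± 0.0169 in GTEA1, 0.938 ± 0.0255 in GTEA7 and 0.778 ± 0.0182 in DMSO. By transcript length, the 4 type I genes summed above the 3 type II genes in every GTEA1 library (1.53 to 1.57). They did so in no GTEA7 (0.904 to 0.966) or DMSO library (0.757 to 0.792). The ratio by coding length was not computed. Per coding kilobase, GTEA7 means were 435 CPM for KRT19, 227 for KRT18, 18.8 for KRT23 and 2.28 for KRT20. The type II means were 674 for KRT8, 2.34 for KRT80 and 1.78 for KRT7. Summed, these type I means lie just above the type II means. The types thus lay close there, and the order of their means in GTEA7 depends on the length used. KRT10 and KRT15, other type I genes tested, are not in these sums. The 7 keratins together took 0.217% ± 0.00534 of all counts in GTEA1, 0.192% ± 0.00341 in GTEA7 and 0.206% ± 0.0103 in DMSO.

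**Figure D3:**
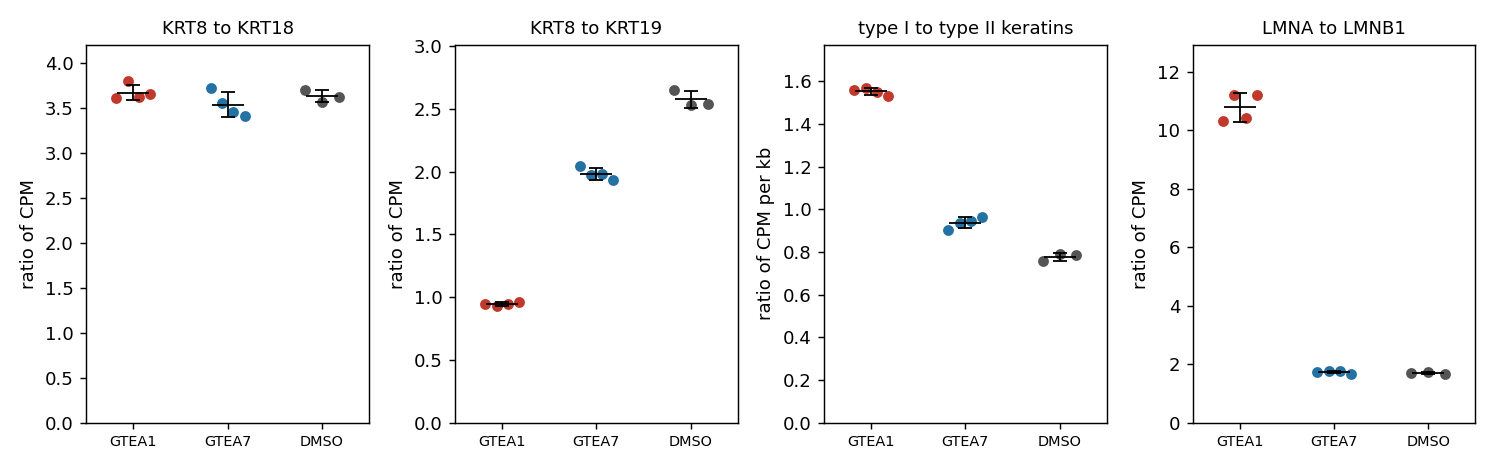
Ratios per library (points) with mean and SD (bars), from left to right KRT8 to KRT18, KRT8 to KRT19, type I to type II keratins, and LMNA to LMNB1; vertical axes are ratios of CPM or, for the keratin types, of CPM per kilobase, from 0. The KRT8 to KRT18 ratio lies between 3.41 and 3.80 in all libraries, while the other ratios set the GTEA1 libraries apart.

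KRT7 (ENSG00000135480), a type II keratin of glandular and ductal epithelia that normal colon mostly lacks, was scarce in these cells without extract. It had 12.1, 9.90, 13.5 and 11.9 CPM in GTEA1 libraries, 2.47, 2.71, 2.83 and 2.03 CPM in GTEA7 libraries and 2.93, 3.12 and 3.03 CPM in DMSO libraries. Every GTEA1 library was above all others, and every GTEA7 library was just below every DMSO library. The log2 fold change was 1.97 ± 0.13 for GTEA1 against DMSO (adjusted p = 3.1e-19) and -2.23 ± 0.12 for GTEA7 against GTEA1 (adjusted p = 1.7e-22). For GTEA7 against DMSO it was -0.26 ± 0.17 and did not pass (adjusted p = 0.28). The antisense gene KRT7-AS had 10 to 15 counts in GTEA1 libraries, 1 to 5 in GTEA7 libraries and 1 to 2 in DMSO libraries, and it rose with GTEA1 (2.94 ± 0.52, adjusted p = 2.4e-06). KRT7-AS passed the low-count filter only through its GTEA1 libraries, so the direction of this change was partly set by the filter. No strand setting is given in the sources used here, so reads of the 2 genes cannot be told apart. KRT7 had 135 to 207 counts per GTEA1 library.

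KRT80 (ENSG00000167767), another type II keratin, also rose with GTEA1. It had 16.5, 14.8, 15.6 and 17.4 CPM in GTEA1 libraries, 3.16, 3.32, 2.53 and 3.67 CPM in GTEA7 libraries and 4.81, 4.15 and 3.51 CPM in DMSO libraries. All GTEA1 libraries were above all others, and GTEA7 replicate 4 reached into the DMSO range. The log2 fold change was 1.94 ± 0.11 for GTEA1 against DMSO (adjusted p = 4.3e-21) and -2.34 ± 0.11 for GTEA7 against GTEA1 (adjusted p = 3.0e-25). For GTEA7 against DMSO, KRT80 passed narrowly at -0.40 ± 0.15 (adjusted p = 0.04). That call was lost with limma-voom (adjusted p = 0.062), DESeq2 (adjusted p = 0.069) and no low-count filter (adjusted p = 0.084), and when DMSO replicate 1 or 2 (adjusted p = 0.25 and 0.09) or GTEA7 replicate 1, 2 or 3 (adjusted p = 0.065, 0.055 and 0.16) was left out.

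KRT20 (ENSG00000171431), a type I keratin used as a marker of mature intestinal epithelium, was among the least abundant of the 10 genes. It had 0.766, 0.587, 0.849 and 0.321 CPM in GTEA1 libraries, 2.93, 3.83, 3.06 and 1.77 CPM in GTEA7 libraries and 1.64, 2.64 and 2.07 CPM in DMSO libraries. These rest on 5 to 13 counts per GTEA1 library, 27 to 75 per GTEA7 library and 28 to 49 per DMSO library. GTEA1 was below all other libraries, and GTEA7 overlapped DMSO. KRT20 fell by 1.76 ± 0.30 on the log2 scale with GTEA1 (adjusted p = 1.2e-06), and GTEA7 stood 2.22 ± 0.26 above GTEA1 (adjusted p = 3.2e-10). For GTEA7 against DMSO the log2 fold change was 0.47 ± 0.21 and did not pass (adjusted p = 0.1), but it was 0.68 without DMSO replicate 2 (adjusted p = 0.048) and 0.63 without GTEA7 replicate 4 (adjusted p = 0.017), and then passed. Its promoter window, 250 bases before to 50 after the RefSeq gene start, is shown because KRT20 had the largest fall with GTEA1 among the 10 genes. The window (chr17:40885193-40885492, minus strand, GRCh38.p14) holds no match to the 4 motifs searched on both strands, GGGCGG (SP1 box), TATAAA (the TATA box), TGANTCA (AP-1) and TGACGTC (ATF/CRE), so all its letters are in lower case.
KRT20: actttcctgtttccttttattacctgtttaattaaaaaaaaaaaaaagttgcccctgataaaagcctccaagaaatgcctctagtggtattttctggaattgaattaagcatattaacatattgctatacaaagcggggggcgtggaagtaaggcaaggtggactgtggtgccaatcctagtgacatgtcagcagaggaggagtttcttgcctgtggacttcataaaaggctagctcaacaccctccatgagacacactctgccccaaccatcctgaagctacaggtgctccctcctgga
Of 34796 such windows in the RefSeq table, 44.9% hold GGGCGG, 11.6% TATAAA, 7.73% TGANTCA and 3.43% TGACGTC. The lack of a match says only that these letters are not in this window.

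KRT23 (ENSG00000108244), a type I keratin described in colon tumours, moved in opposite directions with the 2 extracts. It had 9.19, 6.45, 6.86 and 7.50 CPM in GTEA1 libraries, 24.7, 22.9, 23.1 and 24.7 CPM in GTEA7 libraries and 12.3, 13.2 and 13.2 CPM in DMSO libraries. The groups were fully apart, with GTEA1 lowest and GTEA7 highest. KRT23 fell by 0.79 ± 0.10 on the log2 scale with GTEA1 (adjusted p = 4.8e-10) and rose by 0.88 ± 0.08 with GTEA7 (adjusted p = 4.6e-13). GTEA7 stood 1.67 ± 0.08 above GTEA1 (adjusted p = 3.2e-24).

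VIM (ENSG00000026025), a gene often read as a sign of mesenchymal character, was near the bottom of the order in every group. It had 2.99, 2.86, 3.14 and 3.08 CPM in GTEA1 libraries, 1.44, 1.38, 1.06 and 1.38 CPM in GTEA7 libraries and 2.46, 1.72 and 1.86 CPM in DMSO libraries. These rest on 39 to 48 counts per GTEA1 library, 18 to 27 per GTEA7 library and 27 to 42 per DMSO library. The 3 groups did not overlap, with GTEA1 highest and GTEA7 lowest. VIM rose with GTEA1 (0.58 ± 0.18, adjusted p = 0.0043) and fell by 0.61 ± 0.21 with GTEA7 (adjusted p = 0.027), and GTEA7 stood at -1.20 ± 0.18 against GTEA1 (adjusted p = 1.2e-07). The fall with GTEA7 rests on few counts: it was -0.44 without DMSO replicate 1 (adjusted p = 0.21) and -0.52 without GTEA7 replicate 3 (adjusted p = 0.093), and it did not pass with DESeq2 (adjusted p = 0.074) or without the low-count filter (adjusted p = 0.07). The antisense gene VIM-AS1 had 38 counts in all over GTEA1, 45 over GTEA7 and 26 over DMSO and passed in no comparison. The fibroblast markers summed to 38.2 to 46.3 CPM in GTEA1 and 53.8 to 55.3 CPM in DMSO, nearly all of it COL1A1. Of the 45 COL3A1 and 12 COL1A2 counts over GTEA1, 42 and 12 were in the same library, GTEA1 replicate 4. Any link of these markers to VIM was not tested.

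NES (ENSG00000132688), a large filament protein of progenitor cells, differed little between groups. It had 58.2, 55.0, 56.6 and 48.8 CPM in GTEA1 libraries, 53.0, 53.2, 53.8 and 50.6 CPM in GTEA7 libraries and 49.3, 49.4 and 52.4 CPM in DMSO libraries. All 3 groups overlapped, with GTEA1 replicate 4 below every other library. The log2 fold change was 0.12 ± 0.05 for GTEA1 against DMSO (adjusted p = 0.038), 0.07 ± 0.05 for GTEA7 against DMSO (adjusted p = 0.37) and -0.05 ± 0.05 for GTEA7 against GTEA1 (adjusted p = 0.35). The first value was -0.04 with library size as the only scaling, and its call was also lost with limma-voom, DESeq2 and a fit of these groups alone (adjusted p = 0.053, 0.06 and 0.073) and when either of DMSO replicates 1 and 2 (adjusted p = 0.12 each) or any of GTEA1 replicates 1, 2 and 3 (adjusted p = 0.13, 0.06 and 0.098) was left out. Without GTEA1 replicate 4, GTEA7 stood at -0.10 against GTEA1 (adjusted p = 0.048). The promoter windows of NES (chr1:156677358-156677657, minus strand) and VIM (chr10:17227991-17228290, plus strand), from the same table, are shown because these are the non-keratin filament genes of the cytoplasm. Capitals mark GGGCGG on either strand, CCGCCC being its other strand.
NES: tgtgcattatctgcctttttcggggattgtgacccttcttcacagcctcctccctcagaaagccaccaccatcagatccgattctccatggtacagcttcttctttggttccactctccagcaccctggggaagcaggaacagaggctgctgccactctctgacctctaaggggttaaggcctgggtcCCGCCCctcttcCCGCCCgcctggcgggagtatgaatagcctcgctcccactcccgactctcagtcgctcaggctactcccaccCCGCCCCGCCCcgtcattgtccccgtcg
VIM: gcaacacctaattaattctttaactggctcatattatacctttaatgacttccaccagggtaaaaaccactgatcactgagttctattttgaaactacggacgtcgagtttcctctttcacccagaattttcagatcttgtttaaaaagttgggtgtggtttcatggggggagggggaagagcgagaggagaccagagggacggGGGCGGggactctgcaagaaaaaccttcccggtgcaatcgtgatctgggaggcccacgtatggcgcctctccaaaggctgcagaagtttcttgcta
The NES window holds 4 such boxes, a pair of which overlap by a base, and the VIM window holds 1. Neither holds a match to the other 3 motifs. Windows of 5 of the 10 symbols matched in the table, those of KRT8, KRT20, VIM, NES and LMNA.

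LMNA (ENSG00000160789), which encodes lamins A and C of the nuclear lamina, stood higher with GTEA1 than in both other groups. It had 397, 378, 381 and 357 CPM in GTEA1 libraries, 236, 240.4, 242 and 225 CPM in GTEA7 libraries and 228, 239 and 234 CPM in DMSO libraries. All GTEA1 libraries were above all others, while GTEA7 and DMSO overlapped. The log2 fold change was 0.69 ± 0.04 for GTEA1 against DMSO (adjusted p = 7.0e-23) and -0.68 ± 0.03 for GTEA7 against GTEA1 (adjusted p = 4.0e-24). For GTEA7 against DMSO it was 0.01 ± 0.04 (adjusted p = 0.84), and it turned to -0.04 with library size as the only scaling and to -0.004 without DMSO replicate 1.

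The B-type lamins fell with GTEA1. LMNB1, lamin B1, had 38.7, 33.6, 36.5 and 31.7 CPM in GTEA1 libraries, 136, 136, 137 and 135 CPM in GTEA7 libraries and 135, 138 and 139 CPM in DMSO libraries. It fell 3.92-fold with GTEA1 (log2 fold change -1.97 ± 0.05, adjusted p = 6.2e-38) and was at -0.01 ± 0.04 with GTEA7 (adjusted p = 0.87). LMNB2, lamin B2, fell by 0.68 ± 0.04 with GTEA1 (adjusted p = 6.6e-22) and by 0.14 ± 0.04 with GTEA7 (adjusted p = 0.004). The ratio of LMNA to LMNB1 CPM was 10.8 ± 0.520 in GTEA1 (SD, n = 4), 1.73 ± 0.0464 in GTEA7 (SD, n = 4) and 1.70 ± 0.0336 in DMSO (SD, n = 3). Its lowest GTEA1 library, at 10.3, was far above the highest GTEA7 library, at 1.77, and the highest DMSO library, at 1.74. The ratio of LMNA to LMNB2 was 2.08 ± 0.0387 in GTEA1, 0.891 ± 0.0118 in GTEA7 and 0.801 ± 0.0223 in DMSO, with no overlap between groups.

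Of 20 lamina partners and lamin processing genes, all tested, 8 were higher and 6 lower with GTEA1 (median log2 fold change 0.03, against -0.01 over all tested genes, of which 71.8% passed). Under scaling by library size alone, 5 were higher and 9 lower. SYNE2 (nesprin-2, which ties the nucleus to the cytoskeleton) had 63.4, 71.1, 72.1 and 66.7 CPM in GTEA1 libraries against 304, 296 and 277 CPM in DMSO libraries and fell 4.28-fold (-2.10 ± 0.04, adjusted p = 6.2e-40). TMPO, which encodes the lamin-binding LAP2 proteins, fell 2.82-fold (-1.49 ± 0.04, adjusted p = 1.5e-35), whereas SYNE3 (nesprin-3, which binds plectin) rose 2.59-fold (1.38 ± 0.07) and EMD (emerin) 1.69-fold (0.76 ± 0.04). With GTEA7, 6 were higher and 3 lower (median -0.04, against -0.01 over all tested genes, of which 22.5% passed), but 4 higher and 6 lower with library size alone. Those with the smallest adjusted p were NARF (-0.28 ± 0.04), which binds prelamin A, the lamin B receptor LBR (0.24 ± 0.04), TMPO (0.21 ± 0.04) and SYNE4, nesprin-4 (0.52 ± 0.09). TMPO and LBR were thus lower with GTEA1 (LBR at -0.49 ± 0.04) and higher with GTEA7, each against DMSO. Against GTEA1, GTEA7 had 8 higher and 8 lower, where 72.7% of all tested genes passed. Among the enzymes that process the prelamin A tail, RCE1, a protease, rose with GTEA1 (0.64 ± 0.08, adjusted p = 1.4e-09) and ICMT, a methyltransferase, fell (-0.29 ± 0.04, adjusted p = 2.7e-08). FNTA, of the same list, rose with GTEA1 (0.21 ± 0.05, adjusted p = 2.2e-04), and FNTB did not pass (-0.02 ± 0.11, adjusted p = 0.87). ZMPSTE24, which makes the final cut, had a log2 fold change of 0.00 with GTEA1 and rose with GTEA7 (0.23 ± 0.04, adjusted p = 6.0e-05).

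Linkers tie filaments to junctions and to each other. Of 9 such genes, 2 were higher and 6 lower with GTEA1 (median -0.27, against -0.01 over all tested genes, of which 71.8% passed), and 1 higher and 6 lower with library size alone. PLEC, plectin, a large linker of keratins, vimentin and lamins, had 1624, 1871, 1792 and 1791 CPM in GTEA1 libraries, 493, 448, 446 and 464 CPM in GTEA7 libraries and 505, 520.5 and 505 CPM in DMSO libraries. Every GTEA1 library was far above the others, and every GTEA7 library was below every DMSO library. PLEC rose 3.47-fold with GTEA1 (1.79 ± 0.04, adjusted p = 1.6e-36) and fell by 0.14 ± 0.04 with GTEA7 (adjusted p = 0.0066). EPPK1, the keratin-binding plakin epiplakin, had 19.5, 22.5, 19.7 and 18.7 CPM in GTEA1 libraries, 59.9, 59.0, 55.9 and 61.0 CPM in GTEA7 libraries and 78.1, 82.1 and 79.2 CPM in DMSO libraries. It fell 3.97-fold with GTEA1 (-1.99 ± 0.05, adjusted p = 5.1e-35) and 1.35-fold with GTEA7 (-0.44 ± 0.05, adjusted p = 8.4e-11), with no overlap between groups. Envoplakin (EVPL, -0.85 ± 0.05), dystonin (DST, -0.98 ± 0.05) and desmoplakin (DSP, -0.25 ± 0.04), which anchors keratins at desmosomes, fell with GTEA1 too. PPL, periplakin, passed at 0.17 ± 0.04, but was at 0.01 with library size as the only scaling (adjusted p = 0.86). With GTEA7, 0 were higher and 6 lower (median -0.16, where 22.5% of all tested genes passed). Of these EPPK1 fell most, and the others included PPL (-0.21 ± 0.04), DSP (-0.16 ± 0.04) and MACF1 (-0.18 ± 0.04), which links actin and microtubules. Against GTEA1, GTEA7 had 6 higher and 3 lower, where 72.7% of all tested genes passed.

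**Figure D4:**
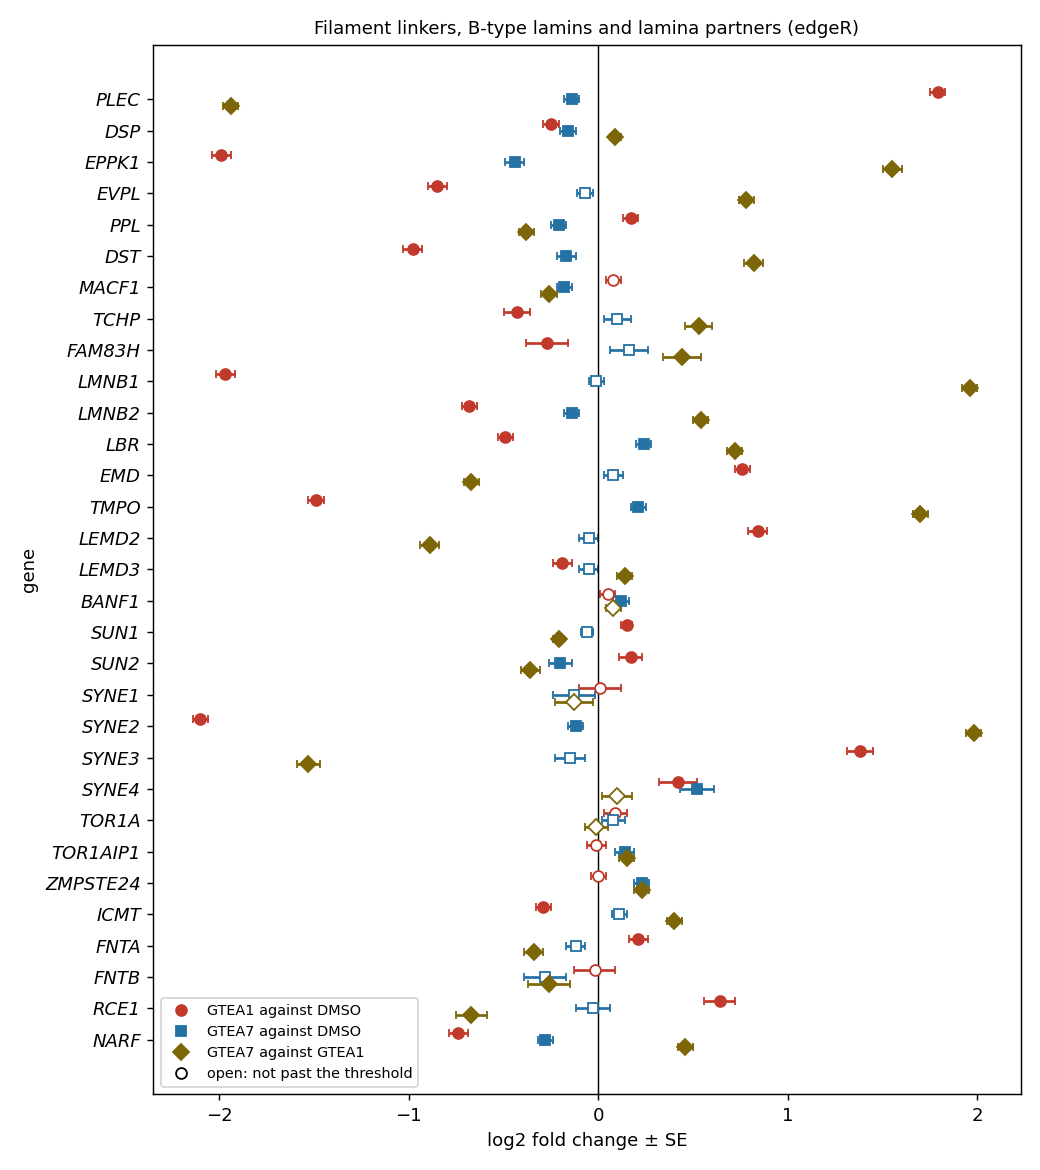
Log2 fold changes (horizontal axis) with standard errors of the 9 linkers, the B-type lamins LMNB1 and LMNB2 and the 20 lamina partners and lamin processing genes in the 3 comparisons, from edgeR; open symbols did not pass the threshold of 0.05. For GTEA1 against DMSO the values run from SYNE2 at -2.10 to PLEC at 1.79, while for GTEA7 against DMSO they lie between EPPK1 at -0.44 and SYNE4 at 0.52.

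Beyond the 7 keratins above, 48 more were listed, and 11 had enough counts to be tested. With GTEA1, 6 of these rose and 5 fell (median 1.39, against -0.01 over all tested genes), where 71.8% of all tested genes passed. For none of the 11 did the groups overlap, where this held for 68.7% of tested genes. KRT16, KRT81, KRT83 and KRT86 passed the low-count filter only through their GTEA1 libraries, and KRT35 and KRT36 only through the other groups. Their directions, and their part in these counts and the median, were thus partly set by the filter. With the filter of 1 CPM or more in 3 libraries or more, 4 were higher and 5 lower. KRT15, a type I keratin of basal and progenitor cells in stratified epithelia, had 47.4, 50.2, 57.7 and 52.1 CPM in GTEA1 libraries, 13.2, 15.7, 13.1 and 15.2 CPM in GTEA7 libraries and 9.38, 7.65 and 7.09 CPM in DMSO libraries. It rose 6.43-fold with GTEA1 (2.68 ± 0.08, adjusted p = 5.7e-29) and 1.77-fold with GTEA7 (0.83 ± 0.10, adjusted p = 1.8e-08). KRT10, a type I keratin of differentiating epidermis, averaged 32.2 CPM in GTEA1, 14.3 CPM in GTEA7 and 12.3 CPM in DMSO and rose 2.62-fold with GTEA1 (1.39 ± 0.07). KRT16, a type I keratin induced in wounded and stressed skin, had 49 to 72 counts per GTEA1 library, 2 to 11 per GTEA7 library and 2 to 5 per DMSO library and rose with GTEA1 (4.14 ± 0.31, adjusted p = 9.2e-17). KRT81, a hair keratin with 24 to 34 counts per GTEA1 library, 2 to 6 per GTEA7 library and 2 to 5 per DMSO library, rose as well (3.08 ± 0.35, adjusted p = 5.9e-11), but its near-identical neighbours KRT83 and KRT86 rose beside it, and the split of reads among the 3 is uncertain. KRT5 and KRT14, the pair of basal squamous cells, had 3 and 13 counts in all over GTEA1, 12 and 5 over GTEA7 and 25 and 14 over DMSO and were not tested.

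With GTEA7, 2 of the 11 other keratins rose and 0 fell (median -0.01, where 22.5% of all tested genes passed), namely KRT15 and KRT10. The call of KRT10 (0.22 ± 0.08, adjusted p = 0.036) was lost with library size as the only scaling (adjusted p = 0.12), with DESeq2 (adjusted p = 0.059) and in the fit with a replicate block (0.20, adjusted p = 0.062), and without DMSO replicate 1 or 3 (adjusted p = 0.21 and 0.06) or GTEA7 replicate 2 or 4 (adjusted p = 0.07 and 0.088). Against GTEA1, GTEA7 had 5 higher and 6 lower, where 72.7% of all tested genes passed. The limit set by the low-count filter, given above, holds for this count too.

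Keratin genes lie in a type II cluster on chromosome 12, which also holds KRT18, and a type I cluster on chromosome 17. Their order was taken from RefSeq, and the arrangement described here was noticed after the values were seen. Of 27 keratin genes in order on chromosome 12, 7 were tested. With GTEA1, 5 were higher and 2 lower, where 71.8% of all tested genes passed. KRT80, KRT7, KRT86, KRT81 and KRT83, places 1 to 5, were all higher with GTEA1. KRT86, KRT81 and KRT83 passed the low-count filter only through their GTEA1 libraries, so without high GTEA1 counts they would not have been tested. The split of reads among these 3 is also uncertain. KRT8 and KRT18, places 26 and 27 at the other end, were lower, with no tested gene between. With GTEA7, 0 of the 7 were higher and 3 were lower (KRT80, KRT8 and KRT18), where 22.5% of all tested genes passed. The calls of KRT80 and KRT18 were lost under some alternatives, as given above. Of 28 keratin genes on chromosome 17, 11 were tested. With GTEA1, 4 were higher and 7 lower, against the same 71.8%. KRT32, KRT35, KRT36 and KRT13, places 19 to 22, were lower, and KRT15 and KRT19, places 23 and 24, were higher. Elsewhere the directions alternated. KRT222 (place 1), KRT20 and KRT23 (places 9 and 10) were lower, and KRT10 (place 7) and KRT16 (place 27) were higher. KRT35 and KRT36 had 0 to 3 counts per GTEA1 library, 12 to 23 and 14 to 20 per GTEA7 library and 15 to 26 and 19 to 26 per DMSO library. They passed the low-count filter only through GTEA7 and DMSO, and KRT16 only through GTEA1. KRT38, place 18 and too scarce to be tested, had 0 counts in GTEA1, 31 in GTEA7 and 14 in DMSO. With GTEA7, 4 were higher and 0 lower than in DMSO on chromosome 17 (KRT10, KRT23, KRT15 and KRT19), against the same 22.5%. The call of KRT10 was lost under several alternatives, as given above.

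**Figure D5:**
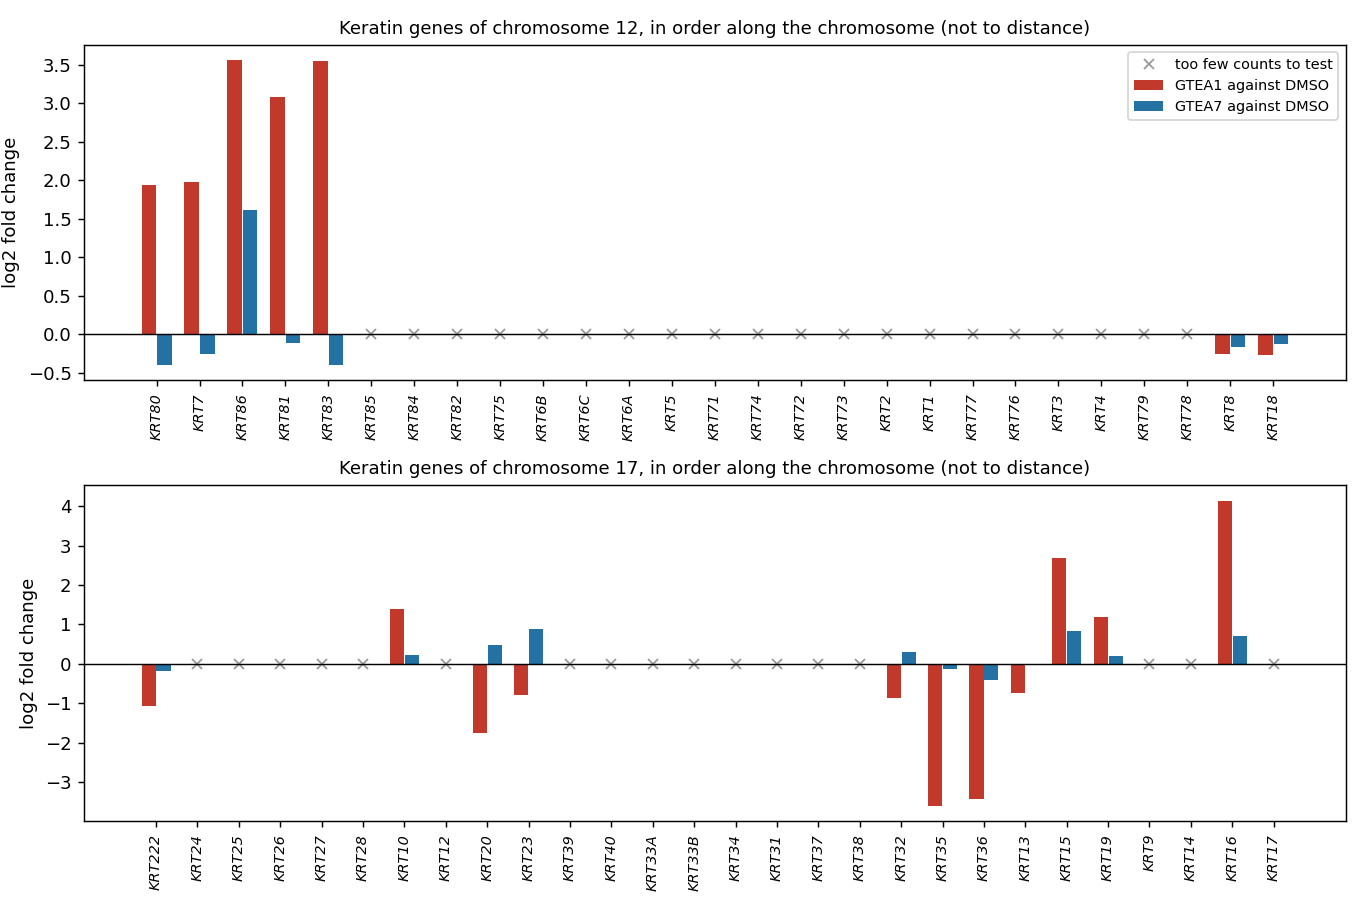
Log2 fold changes (vertical axes) against DMSO of keratin genes in their order along chromosomes 12 and 17, not to distance, with GTEA1 in red and GTEA7 in blue; crosses mark genes with too few counts to test, and bars are shown whether or not they passed. On chromosome 12 the genes of places 1 to 5 are higher with GTEA1 and those of places 26 and 27 lower. KRT83, with 0 to 2 counts per DMSO library, and KRT86, with 1 to 2, rest on few reads. KRT81, KRT83 and KRT86 were tested only because of their GTEA1 counts.

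Of 15 further intermediate filament genes, 8 were tested, the B-type lamins among them. With GTEA1, 2 rose and 5 fell (median -0.58, where 71.8% of all tested genes passed). PRPH, peripherin of peripheral neurons, had 9.95, 8.43, 9.41 and 10.4 CPM in GTEA1 libraries, 1.26, 1.17, 1.65 and 1.44 CPM in GTEA7 libraries and 1.23, 2.16 and 1.72 CPM in DMSO libraries and rose 5.56-fold with GTEA1 (2.47 ± 0.15, adjusted p = 4.6e-20). IFFO2, an intermediate filament family orphan, also rose with GTEA1 (0.63 ± 0.06, adjusted p = 7.5e-14). SYNM, synemin, which joins vimentin and desmin filaments, fell 2.49-fold with GTEA1 (-1.32 ± 0.08, adjusted p = 6.6e-20) and 1.27-fold with GTEA7 (-0.35 ± 0.07, adjusted p = 2.0e-04). With GTEA7, 0 rose and 2 fell (median -0.11, where 22.5% of all tested genes passed), SYNM and LMNB2. Against GTEA1, GTEA7 had 4 higher and 2 lower, where 72.7% of all tested genes passed. GFAP and the neurofilament genes NEFL, NEFM and NEFH had 49, 7, 2 and 22 counts over all libraries and were not tested.

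The genes whose profile over the 11 libraries was most like that of each of the 10 were found by Pearson's r of log2 CPM, over about 14825 genes of at least 1 CPM. They are a description, since the libraries share 3 groups and the groups set most of the profile. For KRT19 the nearest was CLDN7 (r = 0.997) and the next KRT10 (r = 0.997), for LMNA SERPINH1 (r = 0.997), for KRT80 NBR2 (r = 0.995) and for KRT7 DEDD (r = 0.994). For KRT19, 1922 genes had r over 0.95, for LMNA 1850, for KRT7 1640 and for KRT80 1514. For KRT23 the nearest was CALD1 (r = 0.992, with 181 genes over 0.95), for KRT20 LSM4 (r = 0.991, with 136) and for VIM TMC6 (r = 0.977, with 52). KRT8 was nearest to MYLIP (r = 0.975) and KRT18 to EFNA3 (r = 0.968), with 26 and 2 genes over 0.95. KRT18 was in place 60 among the neighbours of KRT8, and KRT8 in place 13 among those of KRT18, at r = 0.934. NES had no gene over 0.95, its nearest being EEF1B2P6 (r = 0.925).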

How the data were processed

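RNA of 11 HCT116 libraries was analysed from the raw counts of reads per gene that the authors deposited. Per the submitters' processing notes, the tools included HTSeq 0.5.4, SAMtools 0.1.18, DESeq 1.10.1, STAR, GATK and Picard, with no role named. The sources used here give no genome build, annotation or strand setting. Symbols were matched for 60370 Ensembl IDs, and a symbol with several IDs stands for the one with the most counts.

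The counts were filtered with filterByExpr of edgeR 4.0.16 (R 4.3.3), which left 17963 genes, scaled by TMM and fitted in 1 robust quasi-likelihood model of all 11 libraries. The F test was adjusted by Benjamini-Hochberg over all tested genes. Each standard error is the log2 fold change divided by the root of its F. The method was tested on simulated data with known changes in a small share of genes, balanced up and down. That does not try the scaling where most genes pass, as with GTEA1. Transcript and coding lengths came from GENCODE v29, promoter windows and gene order from RefSeq GRCh38.p14.

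The members and the gene lists were chosen with earlier results of these data known. All 10 members are named, and from each other list up to 4 genes per comparison with the smallest adjusted p. Values of DSP, LBR, RCE1, ICMT, ZMPSTE24, FNTA and FNTB beyond that rule were chosen after they were seen. The same holds for keratins named for their place or low counts.

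Alternatives were DESeq2 size factors, library size only, no filter, a filter of 1 CPM or more in 3 libraries or more, a replicate block, a fit of the compared groups alone, limma-voom (limma 3.58.1), DESeq2 1.42.0, each library left out, pseudogene reads added and coding length. For genes of the other lists these were chosen after seeing the data. Totals per library limit the precision to what the counts allow, and no library was left out.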

Additional observations from a re-analysis of the deposited data

Results flagged for a closer look

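In groups of 4 libraries, a library was singled out where its gap to the nearest of the others, divided by the range of the group, was above Dixon's 95% critical value. Chance gives this in about 1 in 20 groups, and 72 groups were examined, so the 5 found are near that share. KRT19 had 977 CPM in GTEA1 replicate 4, against 1036 to 1044 CPM in the other GTEA1 libraries. VIM had 1.06 CPM in GTEA7 replicate 3, against 1.38 to 1.44 CPM in the other GTEA7 libraries, and its fall with GTEA7 was not past the threshold without this library. DSP had 467 CPM in GTEA1 replicate 1, against 517 to 525 CPM in the others, LBR 140.4 CPM in that library against 128 CPM in each of the others, and SYNE3 31.2 CPM in it against 33.7 to 34.1 CPM. DSP in GTEA7 stood at 0.09 above GTEA1, and at 0.05 without GTEA1 replicate 1 (adjusted p = 0.1). The cause of these gaps was not tested.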

How the results depend on the processing

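Of 270 log2 fold changes of the 10 genes under settings other than leaving out a library, 258 kept their direction and side of the threshold, and of 330 with a library left out, 311 did. With library size as the only scaling, NES turned to -0.04 for GTEA1 against DMSO and to 0.06 for GTEA7 against GTEA1, and LMNA to -0.04 for GTEA7 against DMSO. With a library left out, LMNA ranged from -0.004 (without DMSO replicate 1) to 0.04 for GTEA7 against DMSO. The count of other keratins past the threshold for GTEA7 against DMSO, 2 as reported, was 1 with library size only, with DESeq2 and with the replicate block, and ranged from 1 to 2 with a library left out; it was 1 without DMSO replicate 1, DMSO replicate 3 or GTEA7 replicate 4. Of 1309 values of the other named genes, 1283 kept direction and side. The cause was not tested. By coding length in place of transcript length, 29 of 30 levels moved by more than their SD.

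Replicate numbers are not said to pair libraries. Deviations of same-numbered libraries had correlations from -0.055 to 0.026 over 10 pairs, and those of other pairs from -0.041 to 0.043 over 30. With the replicate block, 12725, 4087 and 13016 genes passed for GTEA1 against DMSO, GTEA7 against DMSO and GTEA7 against GTEA1, in place of 12895, 4036 and 13056, and KRT20 passed for GTEA7 against DMSO (0.64, adjusted p = 0.0091). It changed no other call among the 10 genes. KRT20 and VIM have the fewest counts, which limits their precision most.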
